A study of Mus musculus with 6 samples.

Results

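The 7 genes described here, Isg15, Irf7, Ifit1, Ifit3, Oasl2, Usp18 and Bst2, are interferon-stimulated genes chosen by name and taken as rows of the 6 count tables, out of 19178 genes counted in all. Their counts were read in cell barcodes that showed 300 genes or more and no more than 25% mitochondrial counts, which kept 4890 of 13191 barcodes. The cells came from crypts of the small intestine, isolated from C57BL6 mice at 10 weeks of age, and were profiled by Drop-seq, which tags the 3′ end of polyadenylated RNA with a cell barcode and a molecular identifier (UMI). The knockout mice carried an epithelial knock-out of Ptger4, the gene of the prostaglandin E2 receptor EP4, and the flox mice carried the floxed Ptger4 gene. Each genotype had 3 collections from 2 biological replicates. From the codes in the labels, which were not explained there, collections 1 and 2 were taken as biological replicate 1 and collection 3 as biological replicate 2. The labels name neither the Cre driver nor the deleted part of Ptger4, and do not say whether a biological replicate is 1 animal or a pool.

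Interferons are secreted by infected or activated cells and act through receptors whose Janus kinases switch on transcription factors. Type I and type III interferons act mainly through the interferon-stimulated response element (ISRE) in target promoters, and interferon gamma mainly through the GAS element. In the gut, epithelial cells respond mainly to type III interferon and leukocytes to type I, and a low level of response is kept up by the microbiota. Isg15 encodes a ubiquitin-like protein that is attached to other proteins, and Usp18 the protease that removes it and that also dampens signalling at the type I receptor. Irf7 encodes the transcription factor that amplifies interferon production. Ifit1 and Ifit3 encode partners that bind viral RNA, Oasl2 encodes a protein of the oligoadenylate synthetase family, and Bst2 encodes tetherin, a membrane protein that holds budding virus particles at the cell surface.

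The promoters of 4 members carry the core letters of the ISRE close to the start site and are shown for that reason. Promoter sequences were available for 6 of the 7 members, from RefSeq on build GRCm38.p6, and the 250 bases before each start were searched on both strands for the letters GAAA, any 2 bases, then GAAA, with overlapping matches counted. This motif lay in 978 of 32851 promoter windows of the same length (2.98%) and in the windows of Isg15, Ifit1, Ifit3 and Bst2. The windows, read 5′ to 3′ along the gene's strand with the motif matches in capitals, are chr4:156200819-156201068 on the minus strand for Isg15, chr19:34640639-34640888 on the plus strand for Ifit1, chr19:34583279-34583528 on the plus strand for Ifit3 and chr8:71537473-71537722 on the minus strand for Bst2.
Isg15: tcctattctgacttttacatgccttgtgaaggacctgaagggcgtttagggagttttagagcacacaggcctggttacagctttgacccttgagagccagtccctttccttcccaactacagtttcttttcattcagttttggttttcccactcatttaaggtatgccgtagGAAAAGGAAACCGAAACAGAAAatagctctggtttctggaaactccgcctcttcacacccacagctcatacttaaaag
Ifit1: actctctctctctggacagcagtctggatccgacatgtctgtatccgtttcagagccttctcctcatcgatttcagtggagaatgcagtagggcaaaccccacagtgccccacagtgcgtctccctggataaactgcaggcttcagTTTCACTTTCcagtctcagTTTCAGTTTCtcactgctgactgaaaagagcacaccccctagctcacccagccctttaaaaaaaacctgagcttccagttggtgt
Ifit3: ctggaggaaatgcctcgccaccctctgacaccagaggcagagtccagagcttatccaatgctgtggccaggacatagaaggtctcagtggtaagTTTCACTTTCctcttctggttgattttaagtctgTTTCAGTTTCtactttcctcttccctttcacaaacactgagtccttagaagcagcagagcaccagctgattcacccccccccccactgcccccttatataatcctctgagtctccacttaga
Bst2: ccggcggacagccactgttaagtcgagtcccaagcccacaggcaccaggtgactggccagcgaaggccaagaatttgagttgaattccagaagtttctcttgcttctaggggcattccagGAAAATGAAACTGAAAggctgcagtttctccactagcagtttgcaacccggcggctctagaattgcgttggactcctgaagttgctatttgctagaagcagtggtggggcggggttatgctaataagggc
Isg15 held 3 overlapping forward matches whose first bases lay 78, 72 and 66 bases before the start. Ifit1 held 2 reverse matches at 104 and 85 bases, Ifit3 held 2 reverse matches at 156 and 122 bases, and Bst2 held 2 overlapping forward matches at 130 and 124 bases. The windows of Irf7 and Oasl2 held no match of these letters. The GAS letters TTCNNNGAA lay in 7.02% of the windows and, among the members, in that of Bst2. A match describes these letters and not a binding site.

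The 7 genes lie on 6 chromosomes (GENCODE M21, build GRCm38). Ifit3 (chr19:34583531-34588731) and Ifit1 (chr19:34640871-34650009) are neighbours on the plus strand of chromosome 19. Isg15 is at chr4:156199424-156200818, Irf7 at chr7:141262706-141266481 and Bst2 at chr8:71534255-71537456, all on the minus strand, and Oasl2 at chr5:114896936-114912234 and Usp18 at chr6:121245906-121270917 on the plus strand. Of the 50-base stretches in the last 500 bases of Ifit3, 14.9% also occur in its near-identical neighbour Ifit3b, which has no row in the tables, so the counts of Ifit3 are uncertain. The 3′ end of Irf7 overlaps that of Phrf1 on the opposite strand, and whether counting used strand is not given in the sources used here, so reads of that overlap cannot be told apart.

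The kept cells held 11437570 counts, with a median of 1274.5 per cell. Ptger4 was still counted in every collection, at 17.4, 19.1 and 24.5 CPM (the count scaled by the total of the cells summed) in the collections labelled knockout, against 11.9, 13.6 and 15.1 CPM in those labelled flox. These levels go against the label, but the tagged 3′ end may not be what was deleted, so they check neither the labels nor the deletion, and knockout and flox below name collections by their labels. Clustering left out the members and a list of other interferon pathway genes, described below. It gave 4501 epithelial and 389 immune cells, of which 153 were T or NK-like and 236 B or plasma-like. Of all kept cells, 40.8% (1995) lay in 5 clusters left unnamed, and these were counted as epithelial. The largest of these clusters held 834 cells with a median of 800.5 counts. Pooled over each label, Epcam reached 2098 CPM in epithelial cells, against 180 CPM in immune cells. The leukocyte gene Ptprc stood at 4.70 CPM in epithelial cells, against 1105 CPM in immune cells. These pooled levels do not check the label of each unnamed cluster. Of the myeloid markers, Csf1r, C1qb and Cd14 had 0 counts in immune cells. Fcer1g had 49 there, Tyrobp 22, Itgax 5, and Lyz2 and Cd68 3 each. The plasmacytoid dendritic cell markers Ly6d and Tcf4 stood at 296 and 145 CPM in immune cells, Pacsin1 at 18.5 CPM and Cox6a2 at 0. No cluster was named myeloid or plasmacytoid dendritic. Flox collection 2 stood apart, with 16.7% immune cells where the others held 3.02% to 10.8%, and with Snord118 at 6.81 CPM where the others held 66.3 to 145 CPM. Kept barcodes were shared within knockout 1, flox 1 and flox 2 (19 to 26 per pair) and within knockout 2, knockout 3 and flox 3 (8 to 17 per pair), and 0 were shared between these sets, which cut across genotype and biological replicate. Xist counts were 1584 in knockout collection 3 and 1457 in flox collection 3, and at most 11 elsewhere. Xist thus set biological replicate 2 apart from replicate 1 in both genotypes, and the main fits between genotypes had no term for the replicate. Within knockout 2, knockout 3 and flox 3, knockout 2 was low in Xist and the other collections were high.

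All 7 members were sparse. They gave 687 counts in the kept cells, or 60.1 CPM, and 522 of 4890 cells (10.7%) held at least 1 of them. Bst2 gave 238 counts, Irf7 168, Isg15 122, Oasl2 85, Ifit1 38, Usp18 19 and Ifit3 17. The largest number of UMIs of a member in 1 cell was 4. The 5 cells richest in Ifit3 held 41.2% of its counts and the 5 richest in Usp18 42.1%, against 7.56% for Bst2, so the first 2 genes rest on a handful of cells. Barcodes under 100 counts, taken as a measure of free RNA, held the members at 44.9 CPM in knockout (5 counts) and 32.6 CPM in flox (4 counts), which is of the order of the level in the kept cells.

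Isg15 stood out in T or NK-like cells. These cells were 3.13% of the kept cells and 1.27% of the counts, but held 26 of the 122 Isg15 counts (21.3%). Its level there was 187 ± 70.9 CPM (SD, n = 4 biological replicates), and the lowest T or NK-like value, 114 CPM, lay above the highest enterocyte-like value, 39.1 CPM. Next in order came enterocyte-like cells at 27.2 ± 10.9, tuft-like cells at 20.4 ± 40.8, B or plasma-like cells at 17.7 ± 21.7, Paneth-like cells at 8.53 ± 7.37, goblet-like cells at 7.43 ± 2.48, the unnamed clusters at 6.66 ± 4.84, stem cell-like cells at 5.30 ± 9.61 and cycling-like cells at 3.43 ± 1.75 CPM. From the enterocyte-like cells down to the cycling-like cells, each class overlapped the next in the range of its 4 replicates. Isg15 was at 0 in 96 enteroendocrine-like cells, which allows a share of up to 3.12% of cells with a UMI.

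**Figure D1:**
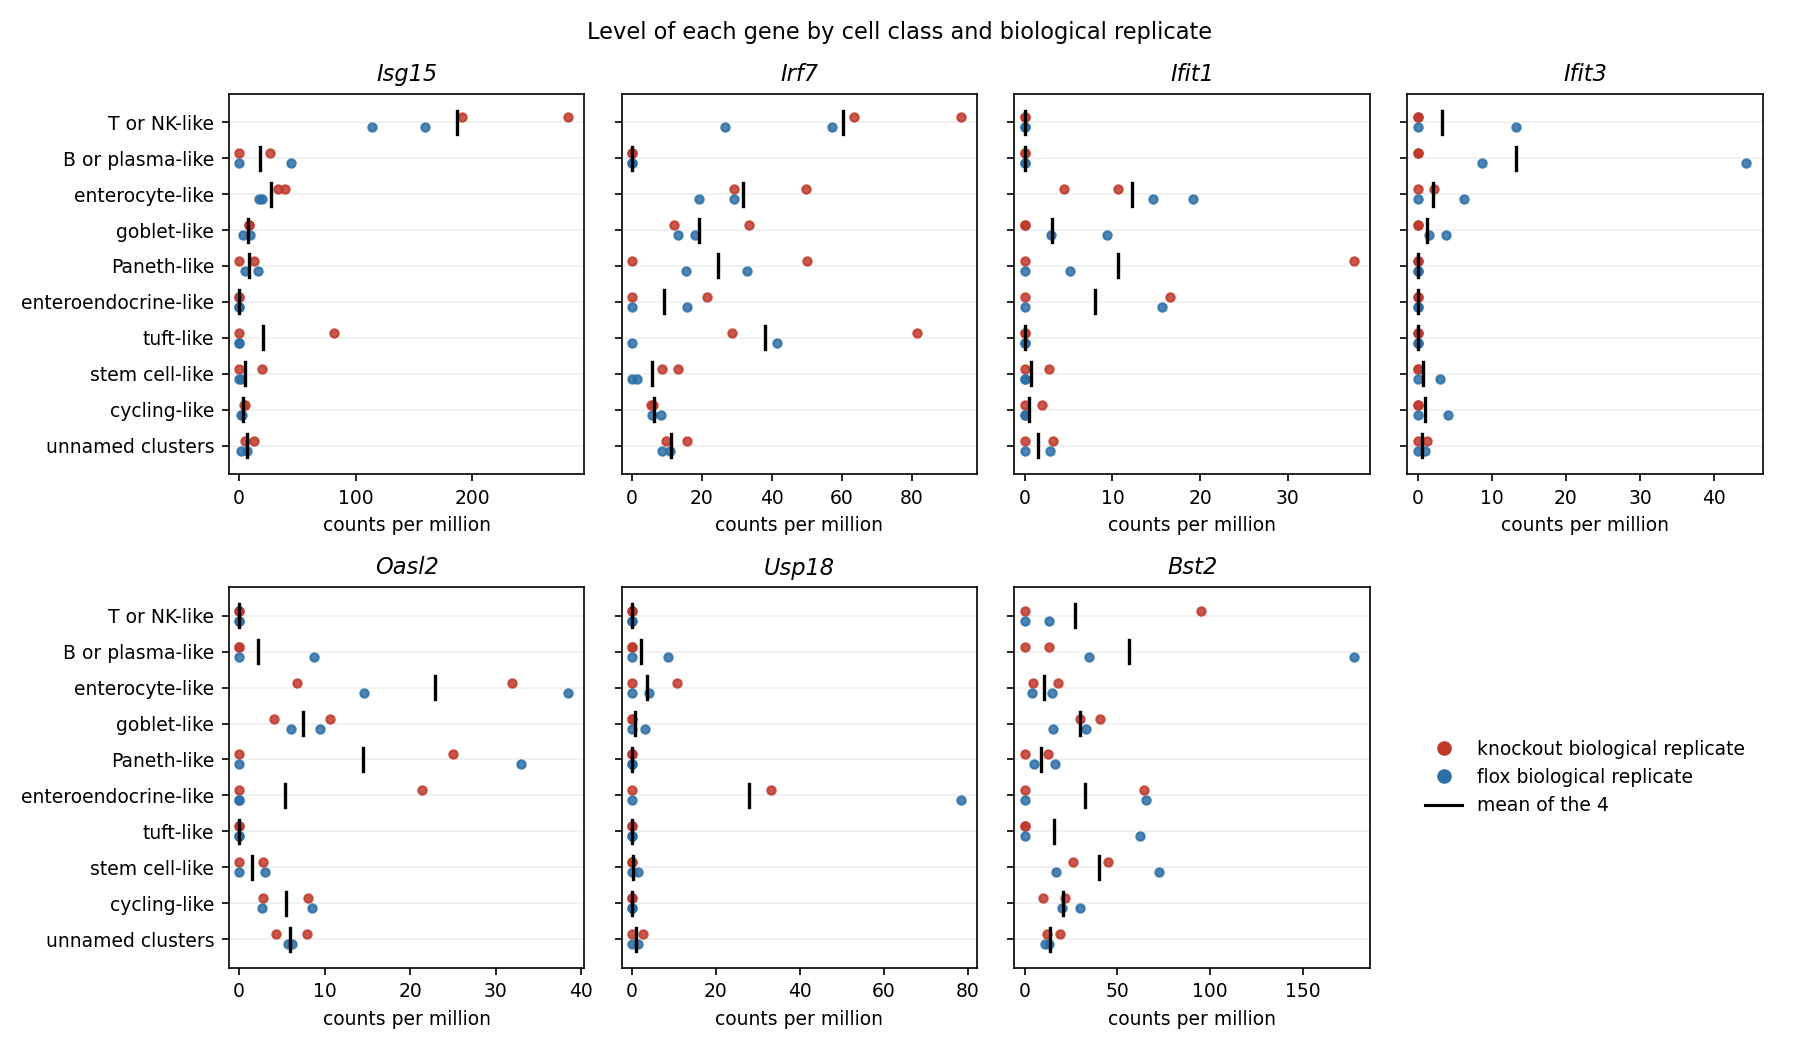
CPM of each gene (horizontal axis, linear, a scale per panel) in the cells of each class (rows), with 1 point per biological replicate, knockout in red above flox in blue, and a black bar at the mean of the 4. Isg15 in T or NK-like cells lies at 114 CPM or more in every replicate, above every value of the enterocyte-like cells (39.1 CPM at most).

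Across all immune cells, Isg15 was 3.06 log2 units higher than in epithelial cells (SE 0.46, edgeR adjusted p = 4.75e-10). By collection it stood at 47.4, 115 and 145 CPM in the immune cells of the 3 knockout collections, against 4.90, 15.9 and 13.1 CPM in their epithelial cells. In the flox collections it stood at 80.9, 38.1 and 74.9 CPM in immune cells, against 6.53, 5.26 and 4.80 CPM in epithelial cells. The immune value was the higher in 6 of 6 collections, and immune and epithelial values did not overlap. Over all 8820 genes tested, 37.3% were called and 11.6% were called higher in immune cells. Of the members, 3 of 7 passed the filter on low counts and 1 was called, with a median of 0.57 over those 3, against -0.43 over all genes tested. A gene could pass the filter through the compartment where it is higher, so this median does not stand for all 7. Without the filter all 7 were tested and 1 was called, with Ifit3 at 2.17, Usp18 at 0.25, Oasl2 at -1.61 and Ifit1, at 0 immune counts, at -5.37.

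The remaining members gave no call between compartments. Bst2 stood at 40.9 ± 42.3 CPM in immune and 20.2 ± 2.40 CPM in epithelial cells (log2 fold change 0.57, SE 0.55, edgeR adjusted p = 0.453). Irf7 stood at 25.6 ± 16.2 CPM in immune and 14.9 ± 4.75 CPM in epithelial cells (0.25, SE 0.68, edgeR adjusted p = 0.807). Ifit1 had 0 counts in immune cells and 38 in epithelial cells (3.44 CPM), and since 3 counts in the immune cells would be 7.93 CPM, a difference was not detectable at this depth. Immune and epithelial cells held 3 and 14 counts of Ifit3, a ratio of levels of 6.27 (exact 95% interval 1.15 to 22.5). For Oasl2 the counts were 1 immune and 84 epithelial (ratio 0.348, interval 0.00871 to 1.99), and for Usp18 1 immune and 18 epithelial (ratio 1.62, interval 0.0390 to 10.3). These intervals cover counting error only.

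Within the immune cells, 26 of 29 Isg15 counts came from T or NK-like cells. Setting T or NK-like cells alone against the epithelium gave 4.07 (SE 0.52, edgeR adjusted p = 2.44e-13), and B or plasma-like cells alone gave 0.53 (SE 1.02, edgeR adjusted p = 0.773). Set directly against B or plasma-like cells over the 3 biological replicates with at least 20 cells of each class, T or NK-like cells held no member that passed the filter on low counts. Without the filter Isg15 was 3.82 log2 units higher in T or NK-like cells (SE 0.87, edgeR adjusted p = 0.000781), in a fit that called 3.3% of 11616 genes, and DESeq2 gave 4.53 with no call (adjusted p = 0.0892). Flox biological replicate 2, with 18 T or NK-like and 10 B or plasma-like cells, was left out of this fit, and with it the value was 3.30 (edgeR adjusted p = 0.00252). This fit was chosen after the values were seen. By collection, Isg15 in T or NK-like cells stood at 111, 299 and 282 CPM in the knockout collections and at 223, 86.0 and 114 CPM in the flox collections. In B or plasma-like cells it stood at 22.1, 33.2 and 0 CPM in knockout and at 0, 0 and 44.4 CPM in flox. All 6 T or NK-like values lay above all 6 B or plasma-like values. The summed counts were 26 and 3, a ratio of levels of 13.9 (exact 95% interval 4.25 to 71.5). The share of cells with an Isg15 UMI was 13.7% in T or NK-like cells and 1.27% in B or plasma-like cells. After each cell was thinned to 500 UMIs the shares were 7.35% (10 of 136, exact binomial 95% interval 3.58% to 13.1%) and 0.515% (1 of 194, 0.0130% to 2.84%), against 0.374% over all epithelial cells. These intervals cover counting error only, over cells pooled from the 6 collections, and are no test between the classes. Median depths were 787 counts in T or NK-like and 682.5 in B or plasma-like cells.

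**Figure D2:**
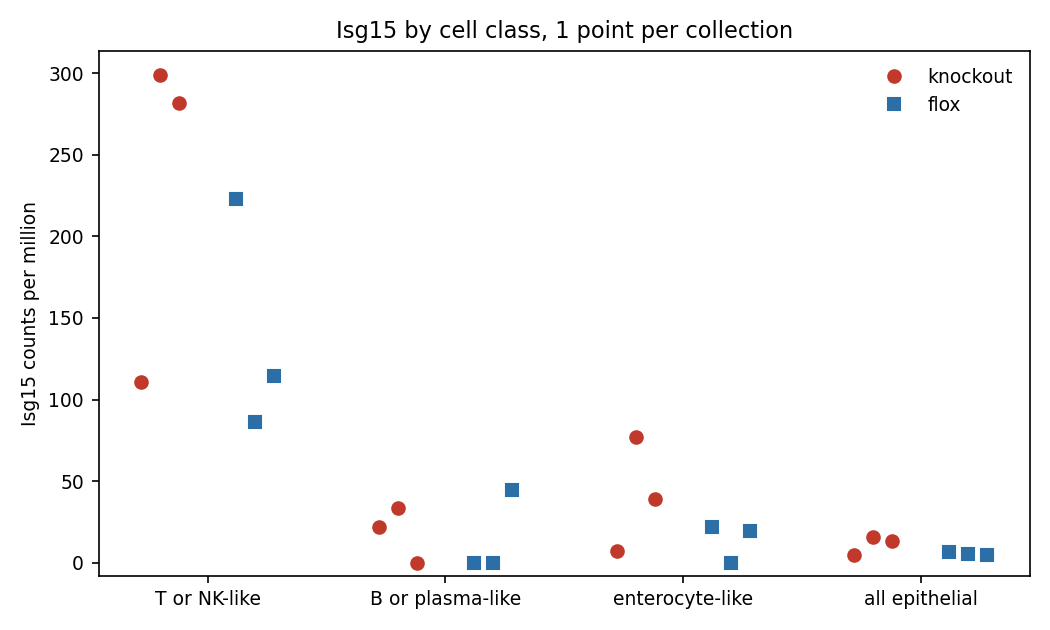
Isg15 CPM (vertical axis, linear) in 4 sets of cells, with 1 point per collection, knockout as red circles and flox as blue squares, collections 1 to 3 from left to right in each group. The T or NK-like points lie between 86.0 and 299 CPM, all above the B or plasma-like and all-epithelial points.

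Irf7 was counted 7 times in T or NK-like cells and 0 times in B or plasma-like cells. Its level over the summed counts was 48.1 CPM in T or NK-like cells, and the ratio of levels has an exact lower 95% limit of 2.30, for counting error only. Neither Irf7 (edgeR adjusted p = 0.664) nor Bst2 (edgeR adjusted p = 0.989) was called in the fit of these 2 classes. The 0 of 236 B or plasma-like cells allows a share of up to 1.27% with a UMI. Per biological replicate, Irf7 stood at 60.3 ± 27.6 CPM in T or NK-like cells, the highest mean of the classes, and its range overlapped those of tuft-like cells (37.9 ± 33.9) and enterocyte-like cells (31.9 ± 12.8). Bst2 gave the opposite sum, with 4 counts in T or NK-like cells and 9 in B or plasma-like cells (ratio 0.711, exact 95% interval 0.160 to 2.55). Of the 9 B or plasma-like counts of Bst2, 4 came from 10 cells of flox collection 3.

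Within the epithelium, 5 members differed between the absorptive enterocyte-like cells (546 cells) and the stem cell-like cells (360 cells) when no filter on low counts was applied. Under the filter, 0 of 7 members entered the test, so each call here comes from the fit without it, in which 4563 of 14779 genes (30.9%) were called. The clusters were drawn without the 7 members and the pathway list described below. Ifitm3, another interferon-induced gene, is not on that list and was not barred from the clustering. It led the genes of the stem cell-like cluster.

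Isg15 stood at 33.8 and 39.1 CPM in the enterocyte-like cells of knockout biological replicates 1 and 2, against 0 and 19.7 CPM in their stem cell-like cells. In flox it stood at 16.7 and 19.2 CPM in enterocyte-like cells, against 1.53 and 0 CPM in stem cell-like cells. The only Isg15 count of flox stem cell-like cells lay in a barcode of 126037 counts in flox collection 1. That barcode also held 3 Bst2 UMIs and 1 Usp18 UMI. As a log2 ratio the difference was 3.05 (SE 0.63, edgeR adjusted p = 8.36e-06), and the enterocyte-like value was the higher in 4 of 4 replicates.

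Irf7 stood at 29.3 and 49.7 CPM in enterocyte-like cells of knockout, against 8.47 and 13.1 CPM in stem cell-like cells. In flox it stood at 29.3 and 19.2 CPM in enterocyte-like cells, against 1.53 and 0 CPM in stem cell-like cells. The change was 2.83 (SE 0.55, edgeR adjusted p = 2.01e-06), and no enterocyte-like value overlapped a stem cell-like value.

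Oasl2 stood at 6.75 and 31.97 CPM in enterocyte-like cells of knockout, against 2.82 and 0 CPM in stem cell-like cells. In flox it stood at 14.6 and 38.5 CPM in enterocyte-like cells, against 3.05 and 0 CPM in stem cell-like cells. The change was 3.04 (SE 0.75, edgeR adjusted p = 0.000260). Only 3 counts came from stem cell-like cells, and the ratio of summed counts, 29 to 3, gave 8.77 (exact 95% interval 2.72 to 45.0).

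Ifit1 had 17 counts in enterocyte-like and 1 count in stem cell-like cells, a ratio of levels of 15.4 (exact 95% interval 2.42 to 645). Its fitted change of 3.60 (SE 1.18, edgeR adjusted p = 0.00964) was no longer called without flox collection 1 (2.83), without flox collection 3 (3.28), without flox biological replicate 1 (2.56), and within each set of collections that share barcodes (2.88 and 4.11).

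Bst2 went the other way. It stood at 4.50 and 17.8 CPM in enterocyte-like cells of knockout, against 45.2 and 26.2 CPM in stem cell-like cells. In flox it stood at 14.6 and 3.85 CPM in enterocyte-like cells, against 16.8 and 72.3 CPM in stem cell-like cells. It was lower in enterocyte-like cells in 4 of 4 replicates, with a log2 fold change of -1.50 (SE 0.46, edgeR adjusted p = 0.00444), and the groups overlapped. The call was lost when flox collection 3 was left out (-1.10), when knockout biological replicate 1 was left out (-1.12) and within knockout 1, flox 1 and flox 2 (-1.10).

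Ifit3, with 4 counts in enterocyte-like and 2 in stem cell-like cells, and Usp18, with 5 and 1, gave no call (1.33, SE 1.96, and 1.95, SE 2.03). Within knockout 1, flox 1 and flox 2, Irf7 alone of the members was called (3.46). Within knockout 2, knockout 3 and flox 3 the calls were Isg15 (2.96), Irf7 (1.97), Oasl2 (5.42) and Bst2 (-2.23). Both fits took single collections as samples, so flox 1 and flox 2, read as 1 biological replicate, counted apart. After thinning to 500 UMIs, 1.11% of enterocyte-like cells (6 of 540, exact binomial 95% interval 0.409% to 2.40%) held an Isg15 UMI, against 0 of 355 stem cell-like cells (upper bound 1.03%). The intervals overlap and cover counting error only, over cells pooled from the 6 collections.

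**Figure D3:**
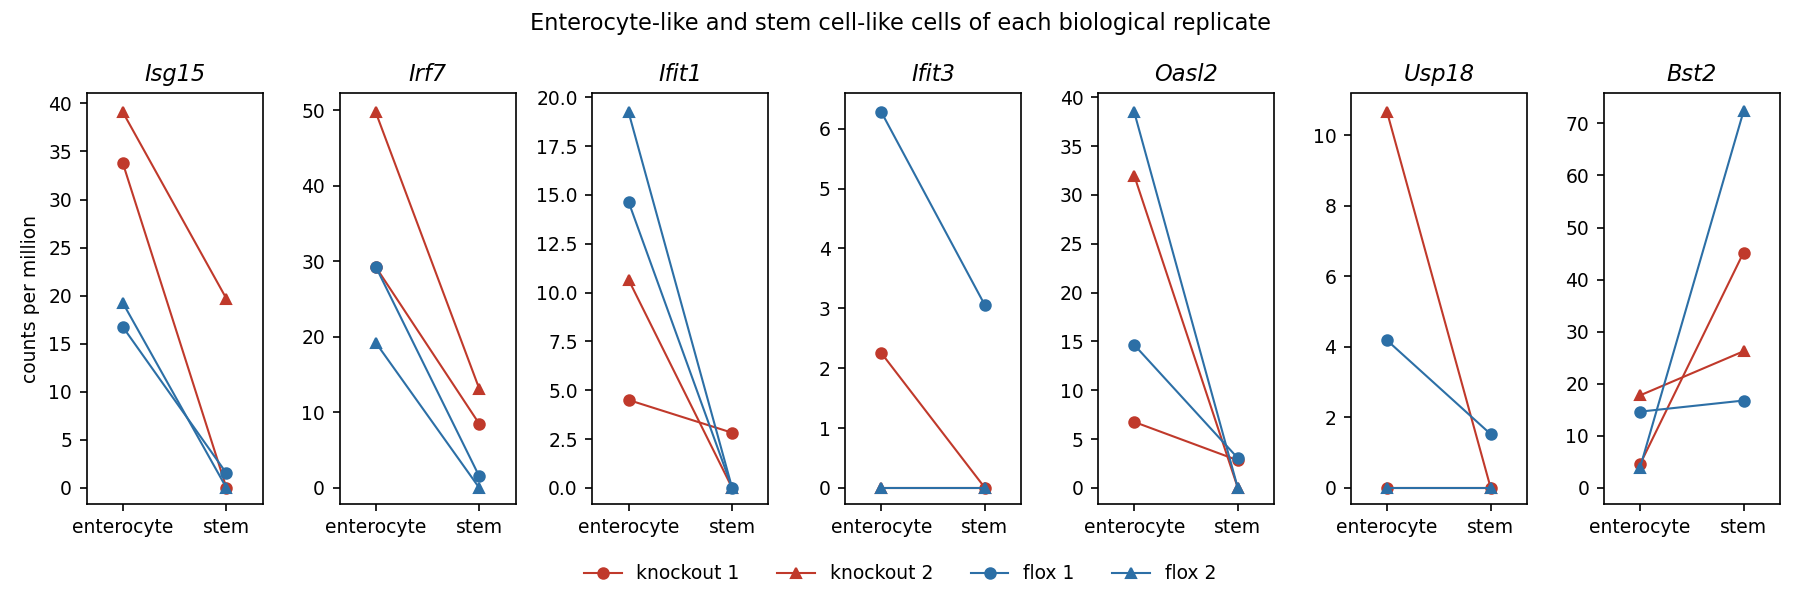
CPM of each gene (vertical axis, linear, a scale per panel) in enterocyte-like cells (left) and stem cell-like cells (right), with a line per biological replicate, knockout in red and flox in blue, circles for replicate 1 and triangles for replicate 2. The lines of Isg15, Irf7, Ifit1 and Oasl2 are higher on the enterocyte side and those of Bst2 on the stem cell side, with Bst2 at 16.8 to 72.3 CPM in stem cell-like cells.

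The secretory classes held counts of several members. Goblet-like cells held 67 of the 238 Bst2 counts (29.7 ± 10.7 CPM) and 44 of the 168 Irf7 counts (19.2 ± 9.90 CPM). Paneth-like cells held 9 counts of Irf7 (24.6 ± 21.6 CPM), 4 each of Ifit1 and Oasl2, and 3 each of Isg15 and Bst2. Of the 19 Usp18 counts, 7 came from 96 enteroendocrine-like cells (27.9 ± 37.1 CPM), a class with 1.63% of the counts. By biological replicate these Usp18 values ranged over 0 to 78.4 CPM and overlapped those of the enterocyte-like cells. In 50 tuft-like cells Irf7 gave 4 counts, Bst2 3, Isg15 1 and the other 4 members 0. No class was compared with another by a test here beyond those named above.

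The other genes of the interferon pathway were read from a list of 149 genes in 9 roles, of which 133 had a row in the tables and 89 were tested between compartments. Of these 89, 33 were called higher and 11 lower in immune cells, with a median of 0.49, against -0.43 over all genes tested, of which 11.6% were called higher and 25.7% lower. The median was also 0.49 with 2 genes that had 0 counts in immune cells set at their bound. A gene could pass the filter through 1 compartment alone, as Ifng did through immune and Mb21d1 through epithelial cells. Among ligands, the only one tested was Ifng, the gene of interferon gamma, with 100 counts in immune and 3 in epithelial cells (9.31, ratio of levels 975, exact 95% interval 324 to 4806). Among receptors, 0 of 4 were called higher and 1 lower, Ifngr2, a chain of the interferon gamma receptor, at -1.92, not called in 2 of 21 alternatives (-1.22 for B or plasma-like cells alone and -1.15 within knockout 1, flox 1 and flox 2).

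Signalling genes had 5 of 10 called higher, among them Socs1 (3.55) and Ptpn6 (3.43), which restrain the kinases, and the kinase Jak1 (1.73). Transcription factors had 0 of 7 higher and 3 lower, among them Batf2 (-3.38) and Irf1 (-1.18). Batf2 had 1 count in immune and 271 in epithelial cells, a ratio of levels of 0.108 (exact 95% interval 0.00272 to 0.606), and it was not called in 7 of 21 alternatives, with edgeR adjusted p of 0.0506 to 0.181. Among the leave-outs these were flox collection 1 (-2.56) and biological replicate 1 of knockout (-3.01) and of flox. Irf1 was not called in 9 of 21 alternatives, among them DESeq2 (-1.14, adjusted p = 0.0592), T or NK-like cells alone (-0.38, edgeR adjusted p = 0.615) and the fit without flox collection 1 (-0.58, edgeR adjusted p = 0.298). Leaving out knockout collection 1 (-0.90), flox collection 3 (-0.97) or biological replicate 1 of knockout (-0.93) or flox (-1.14) also ended the Irf1 call. Guanylate-binding and immunity-related GTPases had 5 of 7 higher and 0 lower, with Gbp9 at 7.81, Gbp4 at 7.09 and Gbp8 at 6.41. Gbp9 had 1 count and Gbp4 3 counts in epithelial cells, so their folds are loose, with ratios of levels of 468 (72.7 to 19620) and 224 (67.7 to 1166). Antigen presentation genes had 8 of 15 higher and 2 lower, with the class I gene H2-Q7 at 5.17, the peptide transporter subunit Tap2 at 3.06 and Ciita, the master regulator of class II genes, at 2.43. With T or NK-like cells alone against the epithelium, Ciita had 0 counts and was not called (edgeR adjusted p = 0.168). The Ciita call was also lost without flox biological replicate 1 (1.598) and within knockout 2, knockout 3 and flox 3 (1.53). Sensors had 2 of 10 higher, Aim2 (2.001), a DNA sensor, and Zbp1 (1.41), a sensor of Z-form nucleic acid. Aim2 was not called in 3 of 21 alternatives, with 600 genes per barcode (1.18, edgeR adjusted p = 0.197), with T or NK-like cells alone (1.48) and within knockout 2, knockout 3 and flox 3 (1.77). Zbp1 was not called in 8 of 17, among them DESeq2 (1.37, adjusted p = 0.119), no filter on low counts (1.33, edgeR adjusted p = 0.0907), the fit without knockout collection 3 (1.54) and that without flox biological replicate 1 (0.80, edgeR adjusted p = 0.625). Of the 2 sensors called lower, Mb21d1, the gene of cGAS, had 0 counts in immune and 238 in epithelial cells, a ratio of levels with an exact upper 95% limit of 0.457 for counting error only. Mb21d1 was not called in 3 of 17 alternatives (edgeR adjusted p of 0.0617 with 600 genes per barcode, 0.0684 with T or NK-like cells alone and 0.0724 without flox biological replicate 1). Of the other interferon-stimulated genes, 12 of 34 were higher, led by Ifi203 (7.91) and Ifi27l2a (7.41), and 3 were lower, among them Tdrd7 at 0 counts in immune and 166 in epithelial cells, with an exact upper 95% limit of 0.657 for the ratio. Tdrd7 was not called in 6 of 16 alternatives, among them DESeq2 (adjusted p = 0.0714), and the fits without biological replicate 1 of knockout (edgeR adjusted p = 0.0512) or of flox (edgeR adjusted p = 0.113). The only tested gene of the ISG15 conjugation role was not called.

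Between enterocyte-like and stem cell-like cells, 41 genes of the pathway list passed the filter, of which 31 were called higher and 4 lower (median 1.04, against -0.01 over all 4687 genes tested, of which 33.6% were called higher and 33.9% lower, 67.5% in all). A gene could pass the filter through the class where it is higher, as Batf2 did with 83 enterocyte-like counts against 4. This median and the counts by role thus do not stand for the whole list. Without the filter, 60 of 124 list genes were called, against 30.9% of all 14779 genes. All 3 tested receptors were higher, namely Ifngr2 (2.09), Il10rb (1.76), a chain shared by the type III interferon receptor, and Ifngr1 (1.32). Transcription factors had 5 of 6 higher, with Batf2 at 4.16 and Irf1 at 1.27. Antigen presentation genes had 11 of 12 higher and 0 lower, with H2-T23 at 1.79, Tap1 at 1.45 and H2-K1 at 1.23. Other interferon-stimulated genes had 8 of 12 higher, with Ifi27l2b at 3.41 and Parp14 at 3.02, and 1 lower, the antiviral deaminase gene Apobec3 (-4.07, with 3 counts in enterocyte-like and 53 in stem cell-like cells). Among sensors, the kinase gene Tbk1 (1.53) and Ifih1, the gene of the RNA sensor MDA5 (1.11), were higher, and Mb21d1 was lower (-5.52, with 1 count in enterocyte-like and 63 in stem cell-like cells). The remaining genes called lower were the phosphatase gene Ptpn2 (-0.99) and the immunity-related GTPase gene Irgm1 (-0.76), while the kinase gene Jak2 was higher (2.10).

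Each member was found in at most 207 of the 4890 cells, and most cells with a member UMI held only 1 member. The number of shared cells to be expected from these rates was not calculated. Of the 522 cells with a member UMI, 467 held 1 member and 55 held 2 or more. The 55 cells had a median of 7550 counts, against 2763 in cells with 1 member and 1167 in cells with none. Isg15 and Irf7 met in 14 cells, which is 14.3% of the 98 cells with Isg15 and 9.15% of the 153 with Irf7. Isg15 and Ifit3 met in 5 cells, which is 5.10% of the cells with Isg15 and 33.3% of the 15 with Ifit3. Ifit1 and Ifit3 met in 0 cells. By share of counts, 57 other interferon-stimulated genes made up 1634 CPM in cells with 2 or more members, 1394 CPM in cells with 1 and 1228 CPM in cells with none. In enterocyte-like cells alone these levels were 2609, 2365 and 2133 CPM. Depth moves with these groups, and its part in the difference was not tested.

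The comparison of genotypes set the collections labelled knockout against those labelled flox. By edgeR, 0 of the 4 members that passed the filter were called in all kept cells, where 1 of 10555 genes (0.00947%) was called. At an unadjusted p under 0.05 stood 1 member by edgeR and 0 by DESeq2, which also called 0. The median over the 4 members was 0.35, against 0.00 over all genes tested. Ifit1, Ifit3 and Usp18 fell under the filter, so this median does not stand for all members. Without the filter these genes stood at -0.55, -2.44 and -0.38. In the same fit Isg15 was at 0.88, Irf7 at 0.62, Bst2 at 0.08 and Oasl2 at -0.05, and no member was called.

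Isg15 stood at 6.70, 19.1 and 15.3 CPM in the collections labelled knockout, against 9.27, 7.78 and 6.13 CPM in those labelled flox. Knockout collections 2 and 3 were the highest of the 6, and knockout 1 lay within the flox values. The most Isg15 UMIs in a cell, 4, lay in enterocyte-like cells of knockout collection 2. As a log2 ratio the difference between genotypes was 0.89 (SE 0.36, n = 2 biological replicates each, edgeR adjusted p = 0.9996). Within knockout 1, flox 1 and flox 2 the value was -0.29, and within knockout 2, knockout 3 and flox 3 it was 1.48. Each of these fits took single collections as samples and had only 1 collection in a genotype. With the set of collections as a term, also over single collections, the value was 0.68 (SE 0.44). The share of immune cells, which carry Isg15 at a higher level, was 8.75%, 7.82% and 4.79% in the knockout collections, against 10.8%, 16.7% and 3.02% in the flox collections. In epithelial cells alone the Isg15 value was 1.07 (SE 0.38, edgeR adjusted p = 0.9998; 0.00969% of 10317 genes called). There 0 of 4 members were called, with 1 at an unadjusted p under 0.05 by edgeR and 0 by DESeq2.

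**Figure D4:**
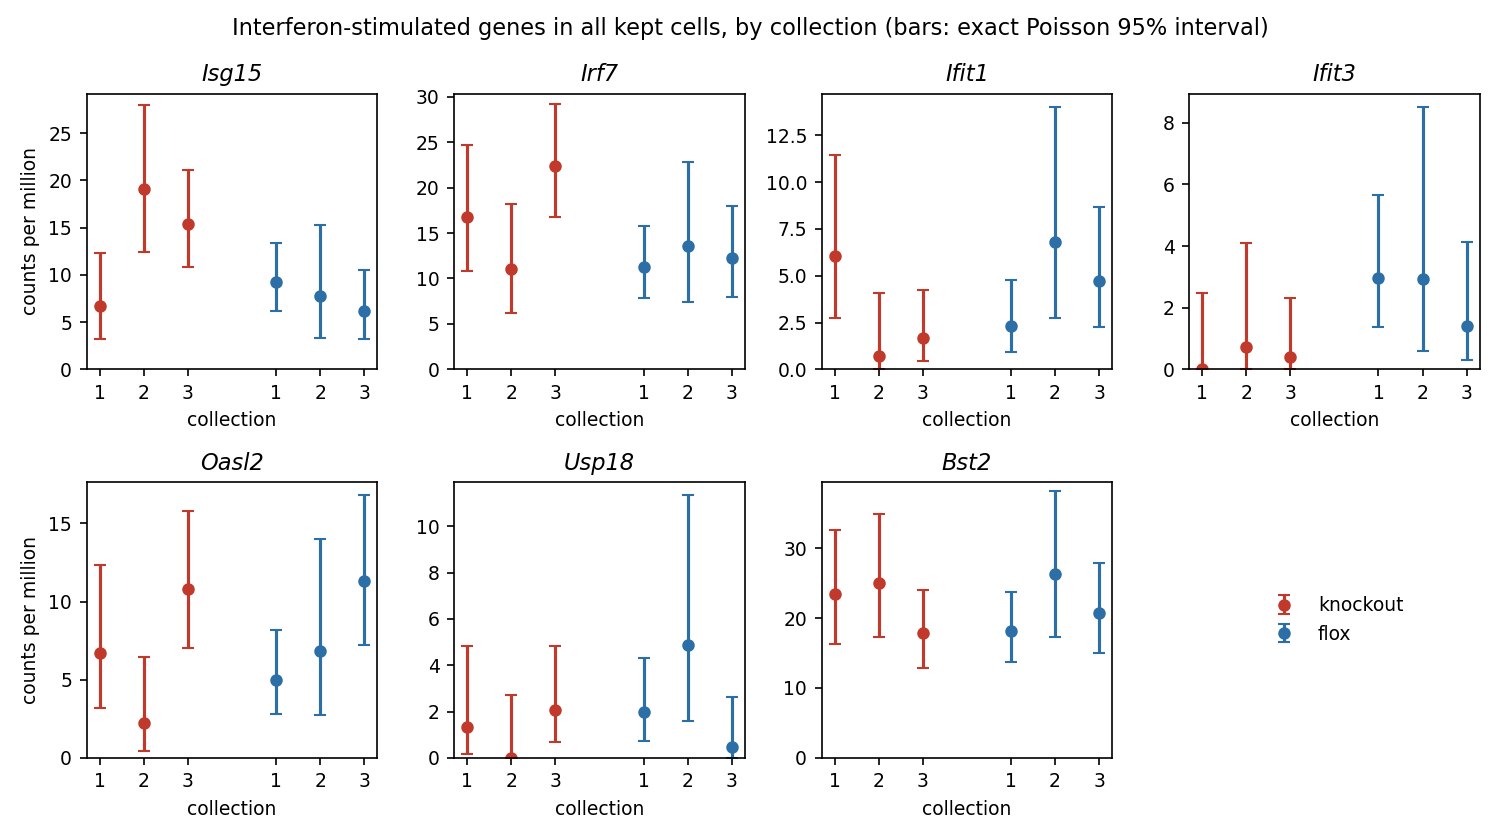
CPM of each gene (vertical axis, linear, a scale per panel) in all kept cells of knockout collections 1 to 3 (red, left) and flox collections 1 to 3 (blue, right), with exact Poisson 95% intervals that cover counting error only. Knockout collections 2 and 3 are the highest for Isg15 (19.1 and 15.3 CPM), the 3 knockout collections are the lowest for Ifit3, and the genotypes overlap for the other genes.

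Irf7 stood at 16.7, 11.01 and 22.4 CPM in knockout, against 11.3, 13.6 and 12.3 CPM in flox. The groups overlapped, since the lowest of the 6 values was a knockout collection and the highest was too. The change was 0.62 (SE 0.31, edgeR adjusted p = 0.9996), with 0.54 and 0.52 within the 2 sets of collections.

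Bst2 stood at 23.45, 24.96 and 17.8 CPM in knockout, against 18.2, 26.25 and 20.7 CPM in flox (0.09, SE 0.26). Oasl2 stood at 6.70, 2.20 and 10.8 CPM in knockout, against 4.97, 6.81 and 11.3 CPM in flox (-0.05, SE 0.51). For both, the groups overlapped over most of their range. The highest Oasl2 value of each genotype was that of collection 3.

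Ifit3 had 0, 1 and 1 counts in the knockout collections, against 9, 3 and 3 counts in the flox collections. Its row is missing from the table of knockout collection 1 and was read as 0. In CPM it was the only member whose genotypes did not overlap, as was the case, with knockout lower, for 3.53% of all genes with a count and 4.17% of genes with 10 to 30 counts. The ratio of summed levels was 0.156 (exact 95% interval 0.0173 to 0.672), which covers counting error only. Without the filter its change was -2.44 (SE 1.13, edgeR adjusted p = 0.996), no call.

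Ifit1 had 9, 1 and 4 counts in knockout, against 7, 7 and 10 counts in flox, a ratio of levels of 0.683 (exact 95% interval 0.327 to 1.38). In goblet-like cells it had 0 counts in knockout and 7 in flox, a ratio of levels with an exact upper 95% limit of 0.781 for counting error only, and the fit without the filter gave no call there (edgeR adjusted p = 0.994). Usp18 had 2, 0 and 5 counts in knockout, against 6, 5 and 1 counts in flox, a ratio of 0.683 (0.228 to 1.88).

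**Figure D5:**
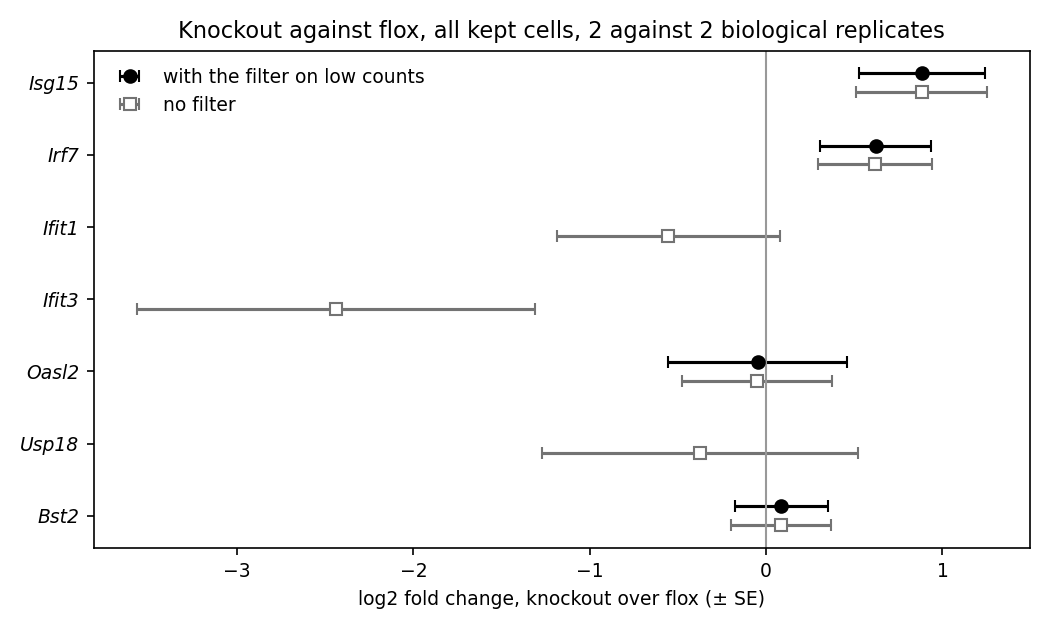
Log2 fold change of knockout over flox in all kept cells (horizontal axis, with bars of 1 SE, 2 against 2 biological replicates) for each gene (rows), filled for the fit with the filter on low counts and open for the fit without it. Isg15 (0.89) and Irf7 (0.62) lie to the right of 0 and Ifit3 (-2.44, without the filter) to the left, and none was called.

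Within epithelial classes the same fits called 0 members, of 3 tested in enterocyte-like cells (where 0.0211% of 4750 genes were called), 1 in stem cell-like cells (0.0974% of 4108) and 1 in goblet-like cells (0.0156% of 6399). In enterocyte-like cells Isg15 stood at 7.27, 76.8 and 39.1 CPM in knockout, against 21.9, 0 and 19.2 CPM in flox (1.06, SE 0.55, edgeR adjusted p = 0.996). The 76.8 CPM of knockout collection 2 rests in part on the barcodes of 5934 and 4021 counts, which held 4 Isg15 UMIs each. Only 3 of all kept cells held 3 or more Isg15 UMIs. In enterocyte-like cells Irf7 was at 0.63 (SE 0.52) and Oasl2 at -0.44 (SE 0.79). Bst2 was at 0.27 (SE 0.64) in stem cell-like cells and at 0.53 (SE 0.48) in goblet-like cells. By edgeR and by DESeq2, 0 of these values had an unadjusted p under 0.05. No member passed the filter in immune or Paneth-like cells, where 0 genes were called, or in cycling-like cells, where 0.0525% of 5714 were.

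The difference between genotypes was not found to depend on the compartment. In the test of the interaction, 0 of 10033 genes were called by edgeR, and the 5 members tested had 0 with an unadjusted p under 0.05, likewise by DESeq2. The Isg15 difference between genotypes was -0.45 (SE 0.97) in immune relative to epithelial cells, a spread that leaves room for a change of either sign. Irf7 was at 0.50 (SE 1.58) and Bst2 at -0.95 (SE 1.27). Ifit3 at -4.98 (SE 8.54) and Oasl2 at -5.61 (SE 7.65) are fits against 0 counts in immune cells of knockout, and are no bound. Ifit1 and Usp18 fell under the filter.

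The share of cells with at least 1 member UMI, after thinning to 500 UMIs, averaged 3.07% ± 0.459 over the 2 knockout and 3.13% ± 0.230 over the 2 flox biological replicates (SD), a difference of -0.0592 percentage points (exact two-sided permutation p = 1). With 2 against 2 replicates the smallest p is 0.333, and with 3 against 3 collections 0.1, so no difference could have passed 0.05. Thinning left 4603 cells, 2263 in knockout and 2340 in flox, and 287 shallower cells were left out. Isg15 was found in 0.607% ± 0.0849 of knockout and 0.534% ± 0.135 of flox cells, and Irf7 in 0.990% ± 0.457 and 0.639% ± 0.283 of them. Ifit3 was found in 0 knockout cells and in 0.160% ± 0.0708 of flox cells (exact two-sided permutation p = 0.333 over biological replicates and 0.1 over collections, the smallest possible).

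Of the pathway list, 101 genes were tested between genotypes in all kept cells, and 0 were called by edgeR or by DESeq2. At an unadjusted p under 0.05 stood 2 by edgeR and 0 by DESeq2. The median was 0.06, against 0.00 over all genes. Those 2 were Tyk2, a kinase of the type I receptor, at 17.1 ± 0.120 CPM in knockout and 26.4 ± 1.39 CPM in flox (-0.59, SE 0.24), and Tap1, a peptide transporter subunit, at 44.1 ± 13.8 CPM in knockout and 30.3 ± 2.88 CPM in flox (0.56, SE 0.25). In the other roles the smallest unadjusted p belonged to Ddx60 (-0.84), Igtp (0.84), Ifng (-0.73), Mavs (0.43), Il10rb (0.32), Uba7 (0.24) and Irf1 (-0.20), none of them called.

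Over 44 sums of a class in a collection with at least 20 cells, the genes whose log2(CPM + 10) followed the summed members most closely, among 6228 genes compared, were Gtf2b (Pearson r = 0.74), Ifrd1 (0.72), Ptpre (0.72), Jak2 (0.71) and Itm2b (0.71). Jak2 is a kinase of the interferon gamma receptor and belongs to the pathway list. The sums share collections and depth, and r is a description without a test. The summed members themselves followed Isg15 (0.65) and Irf7 (0.63) more closely than Ifit1 (0.12) or Bst2 (0.23). Each member is a part of this sum, so part of these r is built in.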

How the data were processed

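Drop-seq counts of 6 collections (3 knockout, 3 flox) were used. Values in the deposited files are whole-number counts by gene and cell barcode, not normalized by the authors as far as the values show. Reads were aligned with STAR 2.6 to mm10, per the submitters' processing notes. For the annotation release, UMI collapsing and strand setting, no source was used here. Kept barcodes had 300 genes or more and no more than 25% mitochondrial counts (473 to 1053 per collection, 1028412 to 3020164 counts). Cells were clustered (scanpy 1.11.5, 2000 variable genes, 30 components, Leiden resolution 1) without the members, the pathway list and mitochondrial genes. Clusters were named from marker lists, and every cluster not named as an immune class was counted as epithelial. Scrublet marked 2 of 4890 cells as doublets, under 0.5%, so that it is taken not to have worked, and no cell was removed. Cells are not replicates, so counts were summed per biological replicate. The fits within or with a term for the sets of shared barcodes, and the block by collection number, took single collections as samples instead. Sums were tested with edgeR 4.0.16 (quasi-likelihood, TMM, filterByExpr minimum count 10, Benjamini-Hochberg, threshold 0.05) in R 4.3.3, with DESeq2 1.42.0 as an alternative. The SE given for edgeR is the absolute log2 fold change over the square root of its F statistic. DESeq2 estimates its own SE, which for Isg15 between genotypes in all kept cells was 0.55, against 0.36 for edgeR. Comparisons between cell classes had biological replicate as a block; those between genotypes did not. The p-values between genotypes rest on 2 samples per genotype, and the labels do not say whether these are separate animals. CPM is relative to the counts of the cells summed. Libraries were read at the 3′ end, so levels were not compared between genes. The fits were tested on simulated data. The members and lists were chosen with earlier results of these data known, and the splits by shared barcodes, the fits of each immune class alone or against the other and the leave-outs without a filter after seeing the data. The rule was to name all 7 members in every comparison, but in some comparisons only part of them are named. Of the pathway genes, the rule allowed up to 3 per role with the smallest p between genotypes, of which 1 is printed. It also allowed up to 3 called per role with the largest change between compartments. Applying that rule to enterocyte-like against stem cell-like cells was added after seeing the data. Some genes that this rule names are not reported here.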

Additional observations from a re-analysis of the deposited data

How the results depend on the processing

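The call of Isg15 in immune against epithelial cells was kept in every alternative except B or plasma-like cells alone, where 0 members were called. No member was called between genotypes in any alternative. Between enterocyte-like and stem cell-like cells, 5 members were called without the filter on low counts, and 0 to 1 under the filter when replicates were left out in turn. The cause of the reversals given here was not tested. Within knockout 1, flox 1 and flox 2, the change between genotypes turned to -0.29 for Isg15, 0.32 for Oasl2, -0.26 for Igtp and -0.81 for Il10rb in all kept cells, to 0.36 for Oasl2 in epithelial cells and to -0.50 for Bst2 in goblet-like cells, and the interaction to -6.74 for Irf7 and 1.18 for Bst2. Within knockout 2, knockout 3 and flox 3, it turned to 0.52 for Ifng in all kept cells and to -1.16 for Bst2 in stem cell-like cells. With all collections, DESeq2 gave -0.10 for Bst2 in stem cell-like cells, against 0.27 by edgeR. Leaving out replicates in turn gave ranges that crossed 0. In all kept cells these were -0.75 to 0.52 for Oasl2, -0.19 to 0.30 for Bst2 and -1.24 to 0.40 for Ifng. In epithelial cells they were -0.70 to 0.54 for Oasl2 and -0.11 to 0.34 for Bst2. In stem cell-like cells Bst2 gave -0.83 to 1.22, and in enterocyte-like cells Oasl2 gave -1.73 to 0.40. For the interaction they were -0.31 to 1.51 for Irf7 and -6.40 to 0.71 for Oasl2. The Oasl2 value of 0.71, without flox biological replicate 1, had an SE of 9919 and is no estimate. Irf7 in immune against epithelial cells ranged over -0.0114 to 0.796, and turned to -0.57 with 600 genes per barcode and to -7.30 with B or plasma-like cells alone, and Ciita turned to -7.10 with T or NK-like cells alone. Both of these last values are fits against 0 immune counts, set by the prior count, and are no bound. For the share of cells with a UMI, knockout minus flox in percentage points, the same ranges were -0.0227 to 0.157 for Isg15, -0.000180 to 0.0918 for Ifit1, -0.520 to 0.0548 for Oasl2, -0.0700 to 0 for Usp18, -0.417 to 0.226 for Bst2 and -0.384 to 0.231 for at least 1 member. Thinning to 1000 UMIs gave -0.381 for Ifit1, 0.0172 for Usp18, 0.154 for Bst2 and 0.696 for at least 1 member, and no thinning gave -0.396 for Ifit1 and 0.565 for at least 1 member. Same-numbered collections did not deviate together in every pair (r = -0.21, 0.08 and 0.41), so the numbers are not taken as a pairing, and biological replicates of the same number gave r = 0.36. With the replicate block, Isg15 between genotypes was 0.88 by biological replicate (edgeR adjusted p = 0.990) and 0.76 by collection number, and 0 members were called in any set of cells. The block by biological replicate moved the genes called to 3 in all kept cells, 32 in enterocyte-like, 31 in cycling-like, 9 in stem cell-like and 5 in immune cells, against 1, 1, 3, 4 and 0 without it. Ifit3, Usp18 and Ifit1 rest on 17 to 38 counts in all.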
